A study of Caenorhabditis elegans with 2 samples.

Results

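The gene lin-42 encodes the Caenorhabditis elegans homologue of Period, the repressor of the circadian clock in flies and mammals. It was examined for regions bound by the nuclear hormone receptor DAF-12, and was chosen by its strong peak in these same data, so every value below is a description and none is tested. All regions were taken whose summit lay between 10 kb upstream of the first annotated lin-42 start and 5 kb past the end of the gene. Of the 30000 regions in the list of both replicates pooled, 11 were in this window. The replicate 1 list had 17 of its 30000 regions there and the replicate 2 list 13 of 30000. The authors also deposited 150 peaks kept by the irreproducible discovery rate (IDR), which scores whether a region's rank repeats across replicates, and 1 of the 150 was at lin-42. These peaks were also the 150 regions of highest pooled signal, and 142 had a region within 100 bp in both replicates. Being in the list does not by itself mean like ranks, which were 16 and 13435 for 1 of them.

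The measurement was chromatin immunoprecipitation and sequencing (ChIP-seq) of whole worms at the L3 larval stage, with males and females pooled and the age unknown. The strain is OP222 (unc-119(ed3) III; wgIs222), in which the transgene wgIs222 supplies eGFP-tagged DAF-12 in an unc-119 mutant background, with no other daf-12 allele listed. Both samples, labelled as biological replicates, form 1 group with the same alleles and no treatment, and the control library was not analysed here. Each region has 1 signal value on an unstated scale, and without read counts the sequencing depth is unknown. Strong binding in few cells and weak binding in many cannot be told apart in whole worms.

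In worms, lin-42 belongs to the heterochronic pathway, which sets the larval stage at which cells take each fate. Loss of lin-42 lets adult fates of the skin appear too early, and its RNA rises and falls once in every larval stage together with the moulting cycle. DAF-12 binds steroids called dafachronic acids and is part of the heterochronic pathway too, linking the choice of the dauer state to stage-specific cell fates. Like other nuclear receptors it binds DNA at short hexamers.

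The gene lies on the minus strand of chromosome II, at chrII:1233236-1252359 in ce11 (WBcel235), and spans 19124 bp (WBGene00018572). The annotation gives 7 isoforms with 5 different starts. Isoforms d and f start first, at position 1252359, isoforms b and c at 1244035, isoform e at 1240101, isoform a at 1236969 and isoform g at 1234625. Isoforms a and c share no base and are separated by 2397 bp. A 5′ UTR is annotated for 3 isoforms, a, b and c, and the starts given for the other 4 may be those of the coding sequence.

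The strongest regions lay inside the gene. The pooled list held 4 regions at lin-42 among its 1000 strongest, a limit set after the values were seen, and all 4 had their summits within the gene. The sequences at these 4 summits carry the rest of the description, so they are printed here on the lin-42 strand, 5′ to 3′. Capitals mark 7 hexamers of the kind that nuclear receptors bind, and the pentamer GAGAG, on either strand, so that a GAGAG on the other strand reads CTCTC. Each hexamer is spelled out with its frequency where the sequences are compared. The strongest is shown with 100 bp and the others with 50 bp to each side of the summit, at chrII:1238026-1238226, chrII:1239685-1239785, chrII:1235252-1235352 and chrII:1247002-1247102.
rank 37: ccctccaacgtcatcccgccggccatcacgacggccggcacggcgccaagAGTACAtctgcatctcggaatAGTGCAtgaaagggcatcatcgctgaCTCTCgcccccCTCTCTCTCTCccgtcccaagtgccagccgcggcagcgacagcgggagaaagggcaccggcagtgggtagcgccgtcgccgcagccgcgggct
rank 263: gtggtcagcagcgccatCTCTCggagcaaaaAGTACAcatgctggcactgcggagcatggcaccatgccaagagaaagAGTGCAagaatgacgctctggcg
rank 499: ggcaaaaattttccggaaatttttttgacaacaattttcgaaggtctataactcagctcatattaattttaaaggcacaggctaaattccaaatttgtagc
rank 654: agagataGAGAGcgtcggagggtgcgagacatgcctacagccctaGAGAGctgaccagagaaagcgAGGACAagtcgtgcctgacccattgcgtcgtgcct

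The strongest region, of pooled rank 37, lay between the ends of 2 isoforms. Its summit at II:1238126 was 1241 bp past the end of isoform c and 1157 bp upstream of the start of isoform a. For isoforms b, d and e this stretch is an intron of 3559 bp (II:1236390 to 1239948), which is intron 5 of b, 6 of d and 1 of e. The signal was 33.1 in replicate 1, 29.1 in replicate 2 and 62.2 in the pooled list. Its rank was 35 in replicate 1, with the summit at II:1238096, and 46 in replicate 2, with the summit at II:1238174. Both replicates therefore placed it near the top of their lists, with summits 78 bp apart. The deposited −log10 q-value was 2.04, which is the highest value in the pooled list and is shared by 55 regions.

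The second region, of pooled rank 263, lay 1609 bp from the first, upstream of it on the gene. Its summit at II:1239735 was in the last exon of isoforms c and f, in coding sequence, and in the same 3559 bp intron of isoforms b, d and e. It was 366 bp downstream of the start of isoform e. The signal was 12.6 in replicate 1 (rank 1093), 15.1 in replicate 2 (rank 700) and 28.2 in the pooled list. The 2 replicates gave it like signals, at summits 79 bp apart, and it fell short of the IDR list, whose lowest signal was 33.49, with 33.45 for the next region below it. Its −log10 q-value was 1.398, against 1.403 for the lowest in the IDR list.

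The third region, of pooled rank 499, lay in a shorter intron, of 936 bp, near the 3′ end. Its summit at II:1235302 was 677 bp upstream of the start of isoform g, in intron 3 of isoforms a and e, intron 7 of b and intron 8 of d. The signal was 13.3 in replicate 1 (rank 823), 8.95 in replicate 2 (rank 9868) and 24.6 in the pooled list. This region was strong in replicate 1 and far down the list in replicate 2, although the summits were 15 bp apart.

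The fourth region, of pooled rank 654, lay in the first intron of isoforms d and f, which is 8173 bp long. Its summit at II:1247052 was 3017 bp upstream of the start shared by isoforms b and c. The same position is inside F47F6.15, an annotated noncoding RNA on the lin-42 strand, and 7 bp from the end of F47F6.13, one on the other strand. The signal was 15.7 in replicate 2 (rank 564), at a summit 4 bp away, and 23.3 in the pooled list. The nearest region of replicate 1 had a signal of 14.5 (rank 513), but its summit was 158 bp from the pooled one, beyond the 100 bp taken as a match. By rank the replicates are alike here, and they differ in the position of the summit.

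**Figure D1:**
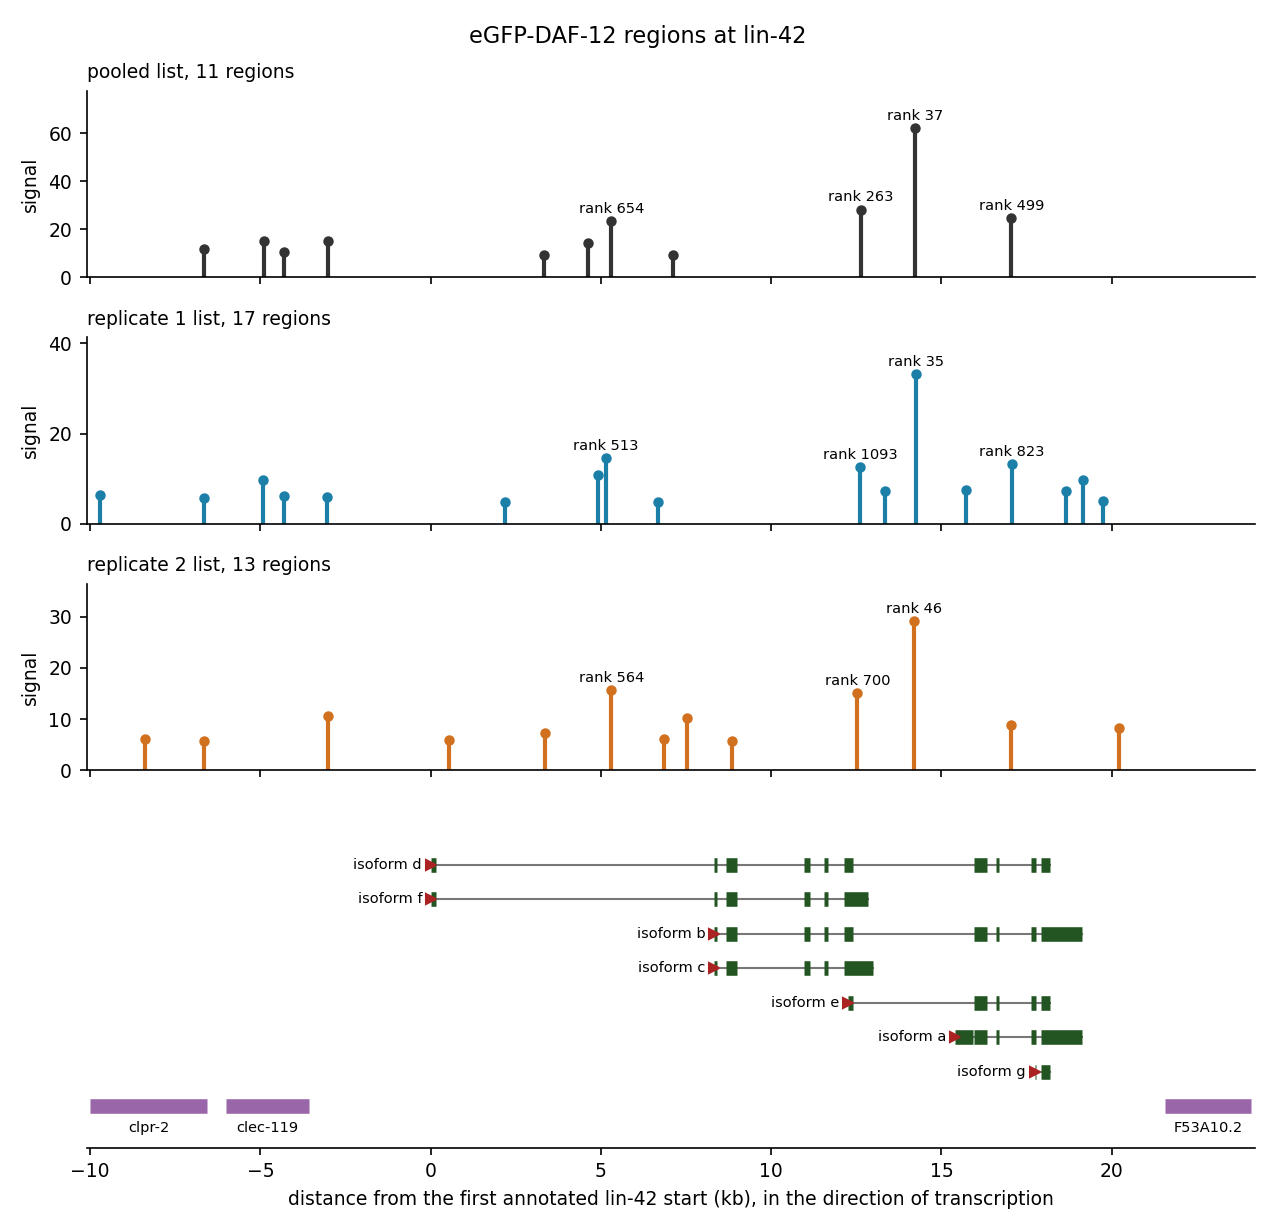
Regions at lin-42 in the pooled list and in each replicate, plotted by distance of the summit from the first annotated start in kb (x axis) and by signal (y axis, scale set by the authors, with a different range in each panel), above the 7 isoforms (boxes are exons, arrowheads are starts) and the neighbouring genes. The region of pooled rank 37 was the highest in all 3 lists, with signals of 62.2, 33.1 and 29.1, and stood between the last exon of isoform c and the first exon of isoform a.

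The other 7 pooled regions at lin-42 were weak, with signals from 9.31 to 15.2 and ranks from 6198 to 28597, around the median signal of 11.98 over all pooled regions. In the long first intron of isoforms d and f lay 3 of them, at II:1245251, II:1247746 and II:1249030. The other 4 lay upstream of the gene, 3025 to 6647 bp from its first start and close to or in 2 neighbouring genes on the other strand. That at II:1255384 was 553 bp from the start of clec-119, named for a C-type lectin domain, those at II:1256654 and II:1257258 were inside clec-119, and that at II:1259006 was 72 bp inside clpr-2. No pooled region had its summit in the 5 kb past the end of lin-42. In replicate 1, 2 of the 17 regions lay there, with signals of 9.72 and 5.12, and in replicate 2, 1 of the 13 did, with a signal of 8.19. The next pooled regions outside it lay 268 bp beyond the 3′ edge (signal 10.3, rank 22997) and 1592 bp beyond the upstream edge (signal 9.65, rank 26473), and the outermost inside had signals of 24.6 and 11.8.

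The first start, of isoforms d and f, and the next, of isoforms b and c, had no region of the 1000 strongest pooled ones nearer than 3017 bp. Nearest to the start of d and f was a pooled region 3025 bp upstream (signal 15.2), a replicate 1 region at 2185 bp (4.82, rank 29626) and a replicate 2 region at 531 bp (5.98, rank 28312). At the start of isoforms b and c the nearest pooled region was 1216 bp upstream (signal 9.31, rank 28597). In replicate 1 it was 1654 bp upstream (4.82, rank 29695) and in replicate 2 it was 518 bp downstream (5.84, rank 29553). Apart from the pooled region of rank 6198, these nearest regions are near the end of lists that, per their deposited names, hold background as well as peaks. Replicate 2 also had a region of signal 10.3 (rank 5802) at 801 bp upstream of the start of b and c, above that list's median signal of 7.84. Isoform a also had a replicate 1 region 320 bp downstream of its start (7.48, rank 10541). The 3 starts nearest to a strong region were those of isoforms e, a and g, at 366, 1157 and 677 bp in the pooled list.

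The replicates were then compared over the whole window. Summits within 100 bp in both replicates were found for 5 of the 11 pooled regions, the peak for which the gene was chosen among them. The share over all pooled regions was not worked out, so this count is a description only. For the strongest, the log2 ratio of replicate 1 to replicate 2 was 0.18. For the regions of ranks 263 and 499 it was -0.27 and 0.57, and for 2 weak ones, of ranks 6198 and 15796, it was -0.80 and -0.05. Over the 142 IDR peaks matched in both replicates, this ratio had a median of -0.01 and an SD of 0.68, so that of the strongest lin-42 region was well within the usual spread. Of the regions listed at lin-42, 5 of 17 in replicate 1 (29.4%) and 5 of 13 in replicate 2 (38.5%) had a summit of the other replicate within 100 bp, against 13.5% of all regions in either list. Among the 1000 strongest of each list the share was 32.1% in replicate 1 and 32.9% in replicate 2. Of the 3 such regions at lin-42 in each list, 2 had a partner (66.7%). All these shares at lin-42 count the peak for which the gene was chosen. Regions at lin-42 without a partner included signals of 10.7 in replicate 1, at II:1247458, and 10.3 in replicate 2, at II:1244836.

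Set against the genome, lin-42 did not have many regions but had several strong ones. The window is 34124 bp long, and the genome was cut into 2935 adjoining tiles of that width, which had a median of 10 pooled regions each. As many as the 11 at lin-42 were in 1307 tiles (44.5%), so the number of regions was ordinary. By contrast, 13 tiles (0.443%) held 4 or more of the 1000 strongest pooled regions, the tile at lin-42 among them. The median tile had 0, and the highest number was 10. Among 288 protein-coding genes whose window was 30 to 40 kb long, 4 had as many strong regions, lin-42 included. The strong regions at lin-42 include the peak for which the gene was chosen, and the limit of 1000 was set after the values were seen. With the 500 or the 2000 strongest regions instead, 0.647% and 1.77% of tiles held as many as lin-42. These shares are therefore a description only.

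An IDR peak in the same window was found for 503 of 19973 protein-coding genes (2.52%), and for 11 of the 288 with a window of 30 to 40 kb (3.82%). Since lin-42 was chosen for its peak, nothing is read from its being one of them. By the rank of the strongest pooled region in the window, 133 protein-coding genes (0.666%) stood level with lin-42 or above it, with lin-42 counted and with neighbouring genes counted separately for 1 shared region. The median best rank over all protein-coding genes was 4130, and their median window was 17027 bp, shorter than that of lin-42. Among introns of protein-coding genes at least as long as the 3559 bp intron of lin-42, 15 of 1343 (1.12%) held an IDR summit.

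The place of the lin-42 peak inside the gene was shared by a minority of peaks. Of the 150 IDR summits, 42 were in the body of a protein-coding gene and 29 of these in introns alone, where the lin-42 peak ranked 7 by signal. It ranked 4 of 19 on chromosome II. A summit upstream by up to 2 kb of an internal start of the gene it lay in was found for 12 of the 150. They were at lin-14, din-1, lin-42, fkh-7, hsp-90, M03C11.3, ceh-38, C33A12.3, zfp-1, hir-1, nhr-40 and T28F4.1. By pooled rank the first 3 were lin-14 (32), din-1 (33) and lin-42 (37). These places were not counted over all pooled regions, so whether they are unusual for strong peaks is not known.

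Among intronic IDR peaks matched in both replicates, the peak most like that of lin-42 was at lin-14. Likeness was measured as the distance in log2 signal over the 2 replicates. Over IDR peaks of every kind, an intergenic one at III:5679145 was nearer, with 33.98 in replicate 1 and 28.01 in replicate 2 (distance 0.0686). Intergenic peaks at X:10766293 (0.209), II:5543688 (0.211), III:13643728 (0.212) and X:5841262 (0.226) were nearer than those at din-1, pqn-41 and zfp-1 given below. The lin-14 peak, at X:11478946, had signals of 35.0 in replicate 1 and 29.9 in replicate 2 (distance 0.089). The gene encodes a nuclear factor of early larval fates. Next came daf-12 itself, with 29.7 in each replicate (0.159). The transgene carries daf-12, and its part in that signal was not tested. The corepressor gene din-1, whose product binds DAF-12, had 30.6 and 34.02 (0.2496). At pqn-41 they were 29.5 and 33.5 (0.262) and at zfp-1, which encodes a zinc finger protein, 31.1 and 23.8 (0.307). These 5 were chosen by their signals, so likeness of level is all that is shown.

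**Figure D2:**
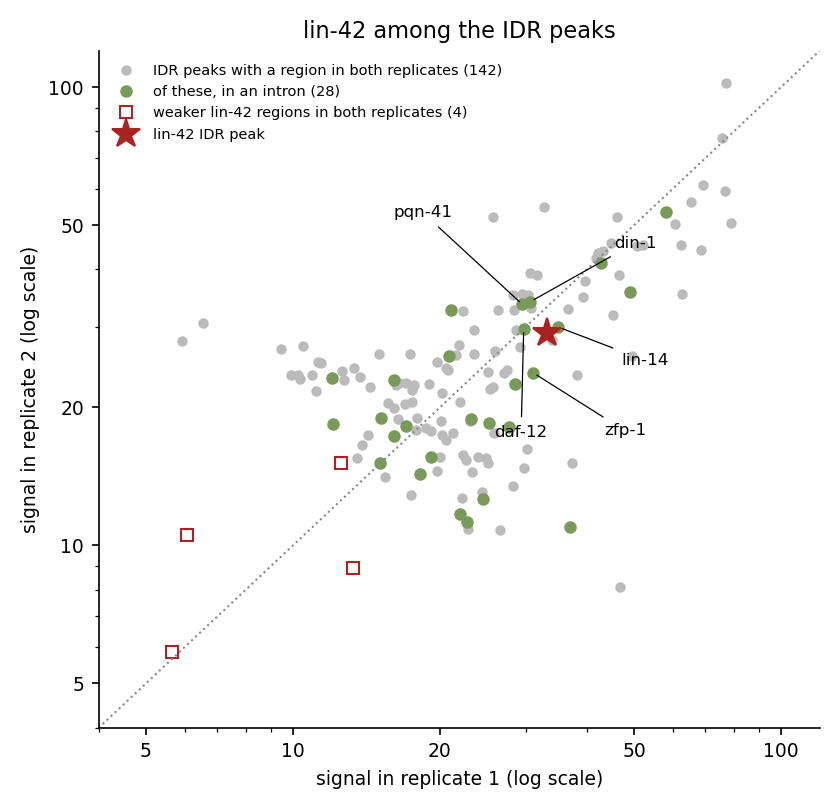
Signal in replicate 1 (x axis) against replicate 2 (y axis), both on log scales in the authors' unit, for the 142 IDR peaks matched in both replicates (grey, with those in introns in green), the lin-42 IDR peak (star) and 4 weaker lin-42 regions found in both (open squares); the dotted line marks equal signal. The lin-42 peak, at 33.1 and 29.1, lies close to the line and beside the peaks at lin-14 and daf-12, and the weaker lin-42 regions lie at or below 13.3 in replicate 1 and 15.1 in replicate 2.

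The short sequences near the summits set the strong regions apart from one another. The region of rank 37 had AGTACA and AGTGCA, both on the lin-42 strand with 15 bases between them, and 5 copies of GAGAG, 4 of which overlap in a single run. The region of rank 263 had the same 2 hexamers, in the same order and on the same strand, with 41 bases between them and 1 GAGAG. The region of rank 654 had AGGACA and 2 copies of GAGAG, and that of rank 499 had none of these sequences within 50 bp of its summit. So the regions of ranks 37 and 263, both in the 3559 bp intron of isoforms b, d and e, had these hexamers in the same order and at different spacings. Windows holding both AGTACA and AGTGCA, in any order and on either strand, were 7 of 150 at IDR peaks (4.67%) and 58 of 30000 in the pooled list (0.193%). This pair was picked after the sequences were seen.

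Over all 11 pooled lin-42 regions, 5 had at least 1 of the 7 hexamers within 50 bp of the summit, among them 3 of the 4 strong ones, against 38.7% of IDR peaks and 21.8% of all pooled regions. AGTACA and AGTGCA were each in 2 lin-42 regions, both strong. They were in 10.7% and 12.7% of IDR peaks and in 4.2% and 3.66% of all pooled regions. AGTTCA was in 2 lin-42 regions, both weak, and in 2.67% of IDR peaks and 6.65% of all pooled regions. GAGAG was in 3 lin-42 regions, all of them strong, and in 46.7% of IDR peaks and 13.2% of all pooled regions. AGTGTG, found in 12.7% of IDR peaks, and in 3.40% of all pooled regions, was in 0 of the lin-42 windows of this width. AGTGCG (8.0% of IDR peaks and 1.63% of all pooled regions) and AGGTCA (3.33% and 2.24%) were in 0 as well. AGGACA was in 1 lin-42 region, a strong one, and in 4.0% of IDR peaks and 2.40% of all pooled regions. GGTCA, the core of the elements bound by ROR-type receptors, was in 3 lin-42 regions, 2 of them strong, and in 21 of 150 IDR peaks and 8.7% of all pooled regions. The GATA-type TTATCA was in 1 lin-42 region, a weak one, and in 4.0% of IDR peaks and 9.86% of all pooled regions.

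Among the strong regions alone, those with these sequences had the higher GC content. Within 50 bp of the summit the GC content was 60.4% at rank 37, 56.4% at rank 263 and 58.4% at rank 654. At rank 499, which had none of the sequences, it was 31.7%. The median was 47.5% over IDR peaks and 33.7% over all pooled regions, and the lin-42 window as a whole had 39.4%. The weak lin-42 regions ranged from 25.7% to 49.5%, and here GC content did not follow the hexamers. Those with a hexamer, of ranks 7762 and 15796, had 28.7% and 40.6%. The weak region with the highest value, of rank 21497, had no hexamer within 50 bp. The part of base composition in the signal, and in which hexamers occur, was not tested.

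**Figure D3:**
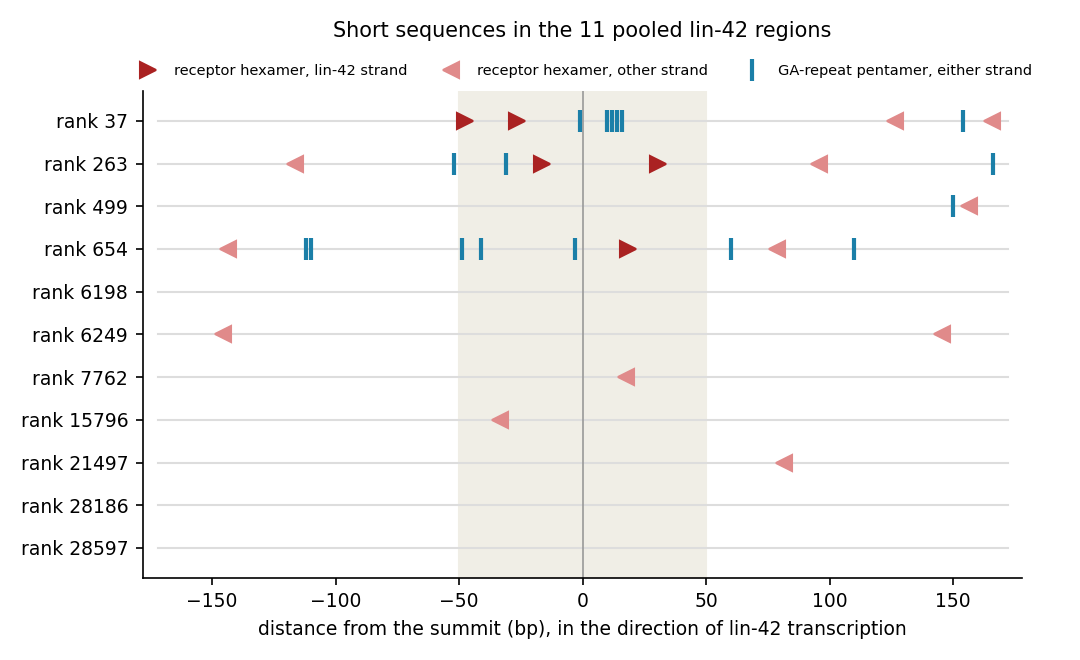
Positions of the 7 receptor hexamers (triangles, pointing along the strand that carries them) and of the GA-repeat pentamer (bars, either strand) in the 11 pooled lin-42 regions, by distance of their centre from the summit in bp (x axis), with regions in order of pooled rank (y axis) and the 50 bp to each side of the summit shaded. In the shaded part, regions of ranks 37 and 263 have 2 hexamers on the lin-42 strand each, that of rank 654 has 1, and that of rank 499 has 0.

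Clock homologues, genes with a PAS domain and timing genes were looked up with the same window. Whether each of them works with lin-42 in worms was not tested. Clock homologues are the worm relatives of the proteins that act with Period in other animals. Among 8 of these, 1 had an IDR peak (12.5%, against 2.52% of protein-coding genes). It was tim-1, the Timeless homologue, with a signal of 20.6 in replicate 1 (rank 124), 17.0 in replicate 2 (rank 348) and 42.04 in the pooled list, at a summit 428 bp upstream of its start. Timeless is the partner of Period in flies, but whether tim-1 has any such part in worms was not tested. The kinase gene kin-20, whose relatives phosphorylate Period proteins, had a pooled region of rank 159, just below the IDR list, 693 bp downstream of its first start. The strongest region anywhere in the kin-20 window had a signal of 24.5 in replicate 1 (rank 70) and 12.8 in replicate 2 (rank 1891), and these need not be the same region.

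The other clock homologues had weaker regions. The best pooled signal was 22.5 at atf-2 (rank 802), a bZIP factor, and 20.8 at cky-1 (rank 1226), which belongs to the bHLH-PAS family. It was 16.1 at nhr-23 (rank 4713), the ROR homologue that drives moulting, and 15.5 at nhr-85 (rank 5662), a relative of Rev-Erb. At ces-2 it was 12.3 (rank 13911), and at aha-1, the ARNT homologue, 10.4 (rank 22317). The median best rank of the 8 was 2969.5, against 4130 over all protein-coding genes. Neither this median nor their share with an IDR peak was adjusted for window length. The windows of the 8 were 16955 to 24798 bp long, and the median over protein-coding genes was 17027 bp.

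The bHLH-PAS genes share the PAS dimerization domain with Period. Among 5 of these, 2 of which are also clock homologues, 1 had an IDR peak, against 2.52% of protein-coding genes. It was hif-1, the hypoxia-inducible factor, whose peak of rank 146 was 2035 bp upstream of its first start. At this peak of hif-1 on V the signal was 5.92 in replicate 1 (rank 19820) and 27.9 in replicate 2 (rank 50), a log2 ratio of -2.23, so it was high in replicate 2 alone. At hlh-34 and ahr-1 the best pooled ranks were 4809 and 9520. The median of the 5 was 4809, against 4130 over all protein-coding genes, again with no adjustment for window length.

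Timing and moulting genes, including microRNA genes that LIN-42 represses, had an IDR peak in the window of 6 of 19. These were mir-241, mir-48, lin-14, daf-12, mir-84 and lin-41. The first pair lie side by side and share the same region, and several of these peaks were known when the list was made. The lin-41 peak had a signal of 22.9 in replicate 1 (rank 85) and 10.9 in replicate 2 (rank 4483), a log2 ratio of 1.08. At the strongest peak of each other gene with an IDR peak here, the replicates were closer. Of the 6, 3 are protein-coding and 3 are microRNA genes. The only other microRNA genes in the list are let-7 and lin-4, and all the rest of the 19 are protein-coding. An IDR peak was in this window for 2.52% of protein-coding genes and for 16 of 261 microRNA genes (6.13%). At let-7 and lin-4, also in the list, the best pooled ranks were 1812 and 8411. At hbl-1, lin-46 and alg-1 they were 449, 772 and 1028. At lin-28 and lin-29 they were 2026 and 2496. The moulting regulators nhr-25, elt-3, bed-3, blmp-1 and mlt-10 and the F-box gene dre-1 had best pooled ranks between 3169 and 7418. The median best rank of the 19 was 1812, against 4130 over all protein-coding genes. This is not a like comparison, because the 19 include microRNA genes and window length was not adjusted for. The windows of the 19 were 15075 to 45968 bp long, and the median over protein-coding genes was 17027 bp.

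**Figure D4:**
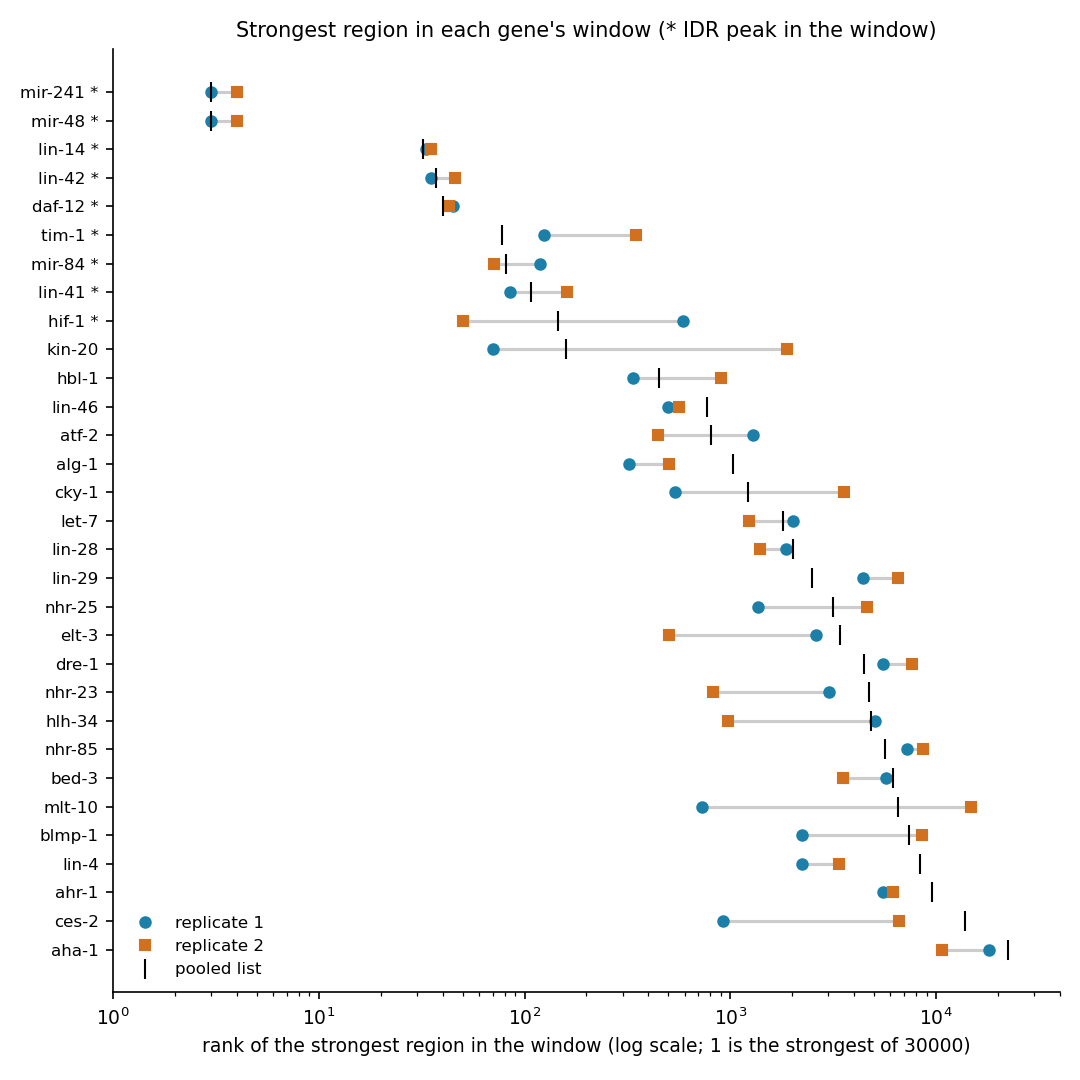
Rank of the strongest region in the window of lin-42 and of each of the 30 listed genes (x axis, log scale, 1 is the strongest). Ranks are given in replicate 1 (circles), replicate 2 (squares) and the pooled list (bars), in order of pooled rank from top to bottom. An asterisk marks genes with an IDR peak. The ranks of lin-42 were 35, 46 and 37, those of lin-14 and daf-12 lay beside it, and those of tim-1, hif-1 and kin-20 were further apart between replicates, whose strongest regions in a window need not be the same one.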

How the data were processed

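The files are ChIP-seq region lists of 2 replicates of 1 group. Per the deposited notes, the authors made a list from each replicate's alignment and from both pooled, each with a control alignment, and an IDR list from these. The caller and the aligner, with any versions, are not given in the sources used here. A signal and a −log10 q-value per region were deposited by the authors; both are the authors' own values and were used only to describe and rank regions within a list. The ce11 lists were used with the WBcel235 genome and the Ensembl release 115 annotation, into whose chromosomes all regions fell; gene symbols follow RefSeq. The ce10 lists were not used here.

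The summit was start plus offset. Regions in 2 lists were matched within 100 bp, and short sequences were searched within 50 bp of the summit. With 2 replicates and no counts, the difference between replicates is the only error given, and it may be technical. No test was made. The gene, lists and sequences were chosen with earlier results of these data known. The genes named were those in the window, the members of the 3 lists and the 5 most alike. Other windows, lists, distances and sequence widths were tried. The scripts (Python 3.11.15, pandas 2.3.3, numpy 2.4.6) were tested on simulated data.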

Additional observations from a re-analysis of the deposited data

How the results depend on the processing

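The strongest lin-42 region kept a rank of 35 to 46 with either replicate left out, against 37 pooled. Leaving a replicate out means reading the deposited list of the other, so these are the replicate ranks given above and no further check. The 11 pooled regions in the window became 7 in the gene body alone and 18 from 20 kb upstream to 10 kb past the end, and with either replicate left out the lists held 13 to 17. Matching summits more strictly gave 4 regions in both replicates, and more loosely or by any overlap 6, against 5. The number of the 11 regions with a receptor hexamer was 3 within 25 bp of the summit, 6 within 100 bp and 8 in the whole region, against 5. Shares over all regions were worked out for 50 bp only, so the counts at other widths have none beside them. Of the 30 listed genes, 8 had an IDR peak in the window, against 2.52% of protein-coding and 6.13% of microRNA genes. The 8 include mir-48 and mir-241, which share the same region. Within 2 kb of a start 5 of the 30 had one, and the share over all genes was not worked out for that distance. RefSeq gave the same 1157 bp to the start of isoform a. In alternatives added after the data were seen, lin-42 had 3 of the 500 strongest pooled regions and 4 of the 2000 strongest, and as many were in 0.647% and 1.77% of tiles. With either replicate left out, 3 of the 1000 strongest were at lin-42, but not the same 3. The region of pooled rank 263 fell to 1093 in replicate 1, and that of pooled rank 499 fell to 9868 in replicate 2. Wider windows hold more regions and sequences by construction, and the cause of the other changes was not tested. Depth is unknown and limits every signal.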
